A study of Danio rerio with 12 samples.

Results

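The nuclear genes of the mitochondrial respiratory chain and ATP synthase were followed in the liver of transgenic zebrafish. Members were all genes outside the mitochondrial chromosome whose name starts with nduf followed by a, b, c, s or v, with sdh followed by a, b, c or d, with uqcr, with cox and a digit between 4 and 8, or with atp5. This rule used names alone and took 102 of the 34028 genes in the count table. Of these, 88 encode structural subunits: 37 of complex I, 5 of complex II, 8 of complex III, 22 of complex IV and 16 of ATP synthase. The ndufa4 genes were counted with complex IV, where their protein is now placed. The remaining members are 7 assembly factors of complex I, 4 assembly factors of complex II and 3 factors that act on ATP synthase. They lie on all 25 nuclear chromosomes, with the most, 9, on chromosome 3. The name rule is case-sensitive and left out 7 genes that the table spells in capitals.

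The respiratory chain sits in the inner mitochondrial membrane. Complex I takes electrons from NADH and complex II from succinate, complex III passes them on to cytochrome c, complex IV hands them to oxygen, and ATP synthase uses the proton gradient that complexes I, III and IV build to make ATP. Core subunits of complexes I, III, IV and ATP synthase come partly from mitochondrial DNA, while the genes described here are read in the nucleus, and several subunits of complex IV and of the ATP synthase c ring exist as alternative copies that differ between tissues.

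Liver RNA was sequenced from 3-month-old fish of a transgenic line, with 3 libraries for each of 4 treatments: TDCIPP together with DOX (TDCIPP+DOX), DOX, TDCIPP, and the solvent DMSO. All groups, controls included, come from this line. With no group without the transgene, an effect of DOX itself and an effect that depends on the transgene cannot be told apart. The promoter of the transgene is not given in the sources used here. TDCIPP is the chlorinated organophosphate tris(1,3-dichloro-2-propyl)phosphate, used as a flame retardant. DOX is not spelt out in the labels. The title asks whether TDCIPP promotes liver tumours. Separate fish are not named as the source of the 3 libraries of a group, and the spread that the p-values rest on is that between libraries, possibly technical in part. Libraries held 28621536 to 40877342 reads assigned to genes.

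Liver identity held in the summed level of 18 hepatocyte markers, which was 103700 to 147500 in reads scaled to a common library size (CPM) in 11 libraries and 74460 CPM in DOX replicate 3. That library also carried 18 oocyte markers at a sum of 2228 CPM, against 13.9 to 231 CPM in the others. TDCIPP+DOX replicate 3 carried 15 intestine markers at 2837 CPM, against 181 to 1167 CPM in the others. DMSO replicate 3 carried 14 exocrine pancreas markers at 3125 CPM, against 89.0 to 1814 CPM in the others. The part of these tissues in the values of the members was not tested. Counts are given for fits with single libraries left out, and calls lost without 4 libraries at once are listed with the other settings.

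The direction of change of the members depended on how libraries were scaled. Reads of the members made up 0.890% ± 0.0937 of all reads in TDCIPP+DOX, 0.853% in DOX, 0.670% in TDCIPP and 0.640% ± 0.104 in DMSO (SD, n = 3). In CPM scaled by TMM, which equalises the bulk of genes between libraries, their sum was instead 6280 ± 701 CPM in TDCIPP+DOX, 7676 ± 1453 CPM in DOX, 7454 ± 326 CPM in TDCIPP and 9162 ± 1406 CPM in DMSO. Vitellogenins, the yolk precursors that the liver of egg-laying fish secretes, took 14.1% ± 3.7 of reads in TDCIPP+DOX, 27.0% ± 6.92 in DOX, 31.7% ± 5.47 in TDCIPP and 40.3% ± 5.23 in DMSO. Their part in the gap between the scales was not tested. Values below are TMM-scaled unless stated and given in the order of replicates 1 to 3, so a lower level is lower relative to the bulk of genes. In bulk RNA, fewer cells of a type and less RNA per cell cannot be told apart.

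Of the 102 members, 96 had enough reads to be tested. Among the 6 that did not, ndufs1, the largest core subunit of complex I, had 0 reads in all 12 libraries. Its gene model overlaps ino80db on the same strand, which had 140 to 565 reads per library. Ndufs8b had 76 reads in all, of which 75 lay in DOX replicate 3. Ndufb4 had 40 reads, 27 of them in TDCIPP+DOX replicate 3. Sdhda, uqcrb and ndufa4l2b had 23, 19 and 4 reads. These genes were left without a verdict. Of the 102 members, 23 share sequence positions with another gene model, and no source says whether strand was used in counting, so the reads of such a gene and its neighbour may not be separable.

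Levels between genes are compared as the FPKM values the authors deposited, which scale reads to transcript length. The length behind them is not given and cannot be the listed gene length throughout. Atp5f1b had 233811 reads in all at a listed length of 1866, and atp5fa1 201831 at 1883, yet atp5fa1 had the higher FPKM. The order of genes and the shares of copies rest on the authors' FPKM. The highest member was atp5mc3b, a copy of the c subunit whose ring turns in ATP synthase, with a mean of 992 FPKM over the 12 libraries. It was followed by atp5fa1, the catalytic alpha subunit, with 429.7 FPKM, by cox8b with 355 FPKM, by cox4i1 with 315 FPKM and by atp5f1b, the catalytic beta subunit, with 309.6 FPKM. The median gene of ATP synthase stood at 138 FPKM and that of complex IV at 114 FPKM, against 61.5 FPKM in complex III, 47.7 FPKM in complex I and 19.6 FPKM in complex II. Assembly factors were lower, with medians of 4.76 FPKM for complex I and 3.88 FPKM for complex II. By FPKM the leading genes within complexes were ndufa12 (130.2 FPKM) in complex I, sdha (69.4 FPKM), the flavoprotein of complex II, and uqcrc2a (136 FPKM), a core protein of complex III. Uqcrh (129.6 FPKM) had 35201 reads at a listed length of 818, against 48909 at 1633 for uqcrc2a, so their order depends on the length used.

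**Figure D1:**
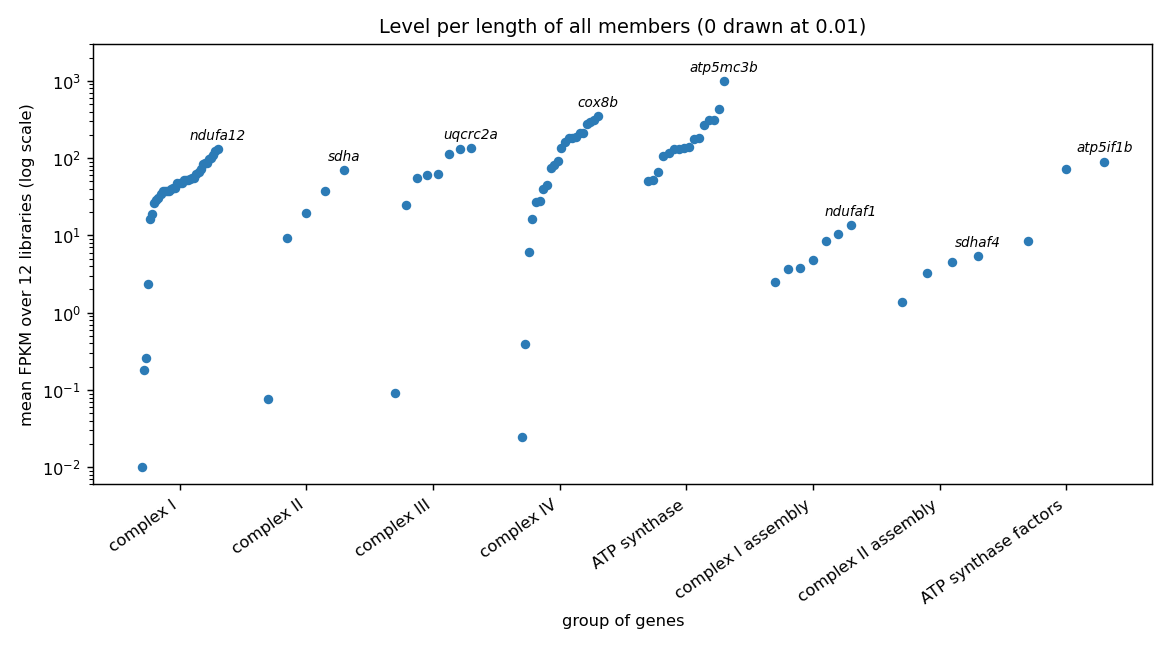
Mean FPKM of each of the 102 members over the 12 libraries, on a log axis, by complex, with genes in order of level and the highest of each group named. ATP synthase and complex IV genes reached the highest levels, up to 992 FPKM for atp5mc3b, and assembly factors stayed under 13.7 FPKM.

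The widest contrast was TDCIPP+DOX against DMSO. On the TMM scale 3 of the 96 tested members rose and 16 fell with an adjusted p under 0.05 in edgeR's quasi-likelihood test with Benjamini-Hochberg adjustment, whereas 5.33% of all 19160 tested genes rose and 6.37% fell. The median log2 fold change of the members was -0.38, against 0.10 over all genes, and 80 of 96 members lay below 0. Groups did not overlap for 6 members that were higher and 50 that were lower, against 21.2% and 18% of all genes. With library totals as the only scaling, 48 members rose and 2 fell, against 36.4% and 1.59% of all genes, and the medians were 0.64 for members and 1.11 for all genes. The distance of the members from the median gene was -0.48 with TMM and -0.47 with library totals. A change of scaling shifts all genes of a library alike, so these values could hardly differ and are no separate support. On the TMM scale the distance was -0.61 to -0.39 with any 1 library left out. DESeq2 called 5 members higher and 29 lower, against 8.76% and 10.1% of the genes it tested.

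By complex, the fall on the TMM scale was counted in 5 of 16 ATP synthase subunits, 4 of 34 complex I subunits, 6 of 21 complex IV subunits and 1 of 7 complex I assembly factors, and in 0 of 4 complex II subunits, 0 of 7 complex III subunits, 0 of 4 complex II assembly factors and 0 of 3 ATP synthase factors. At an unadjusted edgeR p under 0.05 (12.9% of all genes were lower) the lower counts in these groups of genes were 10, 17, 8, 2, 0, 3, 2 and 2, and by DESeq2 8, 8, 6, 2, 0, 2, 2 and 1. Median log2 fold changes were -0.60 for ATP synthase, -0.41 for complex I, -0.29 for complex IV, -0.15 for complex II and -0.10 for complex III. With library totals the medians were 0.42 for ATP synthase, 0.61 for complex I, 0.73 for complex IV, 0.86 for complex II and 0.92 for complex III. All 3 rises on the TMM scale lay in complex IV. The differences between complexes were not tested.

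The count of falls depended on single libraries. Without TDCIPP+DOX replicate 1, 2 or 3 it was 6, 9 and 9, without DMSO replicate 1 or 2 it was 10 and 8, without DOX replicate 1 it was 10, and without DOX replicate 3 it was 27. Calls over all genes, in both directions, moved too. They numbered 2241 with all libraries, and 1017, 1474 and 1129 without TDCIPP+DOX replicate 1, 2 or 3. Without DMSO replicate 1 or 2 they were 1370 and 1113, without DOX replicate 1 they were 2121, and without DOX replicate 3 they were 3391. The count of rises was 1 without DMSO replicate 2, DMSO replicate 3 or TDCIPP+DOX replicate 3, and 5 without DOX replicate 1 or 3. Of the 19 calls, 6 were kept with any 1 of the 12 libraries left out: atp5mc3b, atp5mea, cox5aa, cox6b2, cox7a1 and cox7a3. A further fit left out 4 libraries at once: DOX replicate 3 for oocyte markers, and TDCIPP+DOX replicate 3, TDCIPP replicate 1 and DMSO replicate 3 for intestine transcripts. The last 3 had the intestine marker fabp2 at 106, 46.8 and 55.7 CPM, against 0.197 to 8.73 CPM in the others. The summed intestine markers of TDCIPP replicate 1, at 820 CPM, stood nearer to TDCIPP replicate 2, at 644 CPM. This fit took 1 library from every group, so an effect of fewer libraries and an effect of other tissue cannot be told apart in it. In this fit 2 members rose and 17 fell, and 2306 of all 19171 genes were called in either direction.

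**Figure D2:**
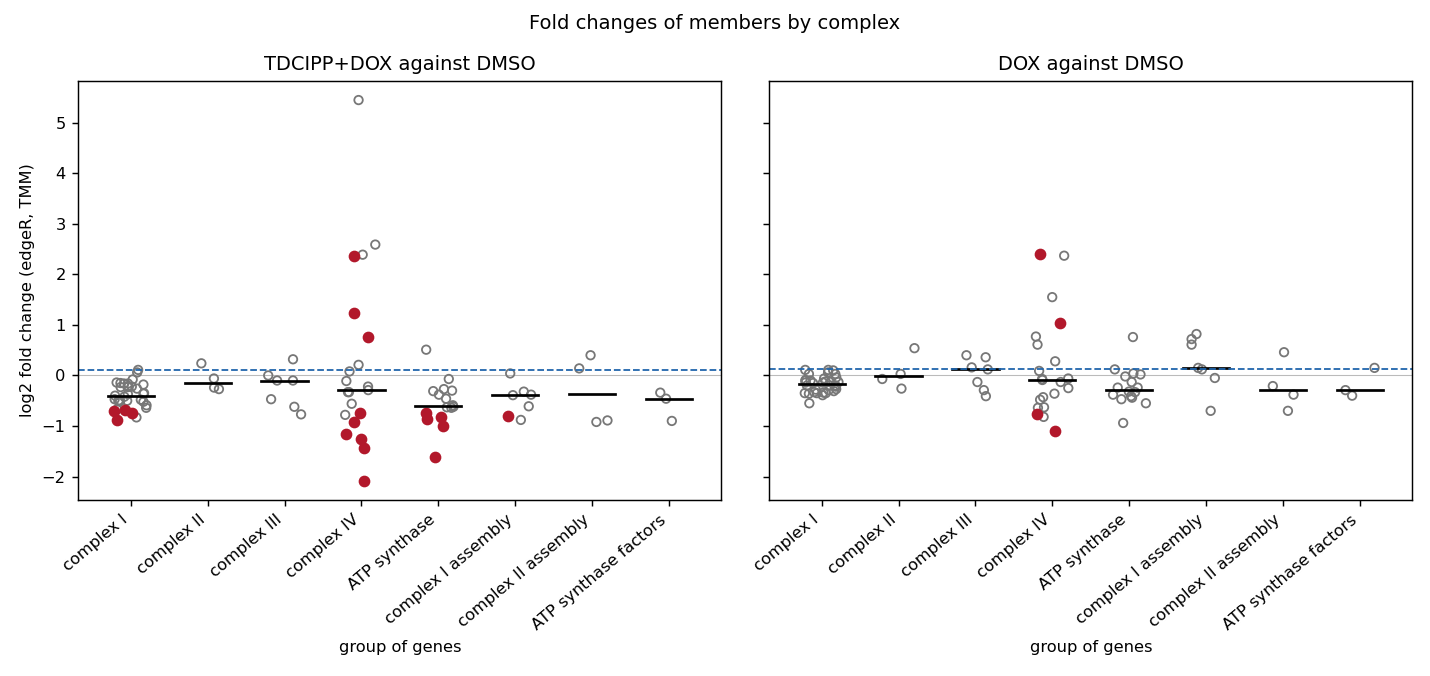
Log2 fold change (edgeR, TMM) of each tested member by complex in TDCIPP+DOX against DMSO and in DOX against DMSO, with filled red points for an adjusted p under 0.05, black bars for the median of each group of genes and a dashed line for the median of all genes. Most members of the left panel lie below the dashed line at 0.10, and with library totals in place of TMM the median of the members moves to 0.64 and that of all genes to 1.11.

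Complex I gave 4 falls in TDCIPP+DOX against DMSO, all accessory subunits, and the sign of each turned with library totals. Ndufa3 had 27.7, 32.8 and 39.6 CPM in TDCIPP+DOX, 47.6, 50.9 and 42.4 CPM in DOX, 47.7, 54.1 and 44.5 CPM in TDCIPP, and 58.4, 70.7 and 56.0 CPM in DMSO (log2 fold change -0.89 ± 0.19, SE, edgeR adjusted p = 0.0121). TDCIPP+DOX libraries lay below all others. Ndufa8 (-0.74, edgeR adjusted p = 0.0395), ndufa11 (-0.70, edgeR adjusted p = 0.0285) and ndufa6 (-0.69, edgeR adjusted p = 0.0311) had smaller changes. The gene model of ndufa11 overlaps others. With library totals the log2 fold changes of ndufa3, ndufa8, ndufa11 and ndufa6 were 0.13, 0.29, 0.31 and 0.33. Ndufa3 lost its call without DMSO replicate 2 or TDCIPP+DOX replicate 1, and each of the others without 6 to 9 of the 12 libraries in turn, among them every TDCIPP+DOX library.

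Of the core subunits that carry the electron path of complex I, the following did not pass the test. Ndufv1, which binds NADH and its flavin, had a log2 fold change of -0.23, and ndufs3 and ndufs7 had -0.35 and -0.36. Closest to the threshold were ndufs8a at -0.67 (edgeR adjusted p = 0.0532) and ndufv2 at -0.64 (edgeR adjusted p = 0.0551), both iron-sulfur subunits. Whether core and accessory subunits differ was not tested. With library totals 16 of 34 complex I subunits rose and 0 fell (36.4% and 1.59% of all genes), and their median was 0.61.

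Assembly factors of complex I join its parts without staying in the finished complex. Ndufaf3, 1 of the 7, fell in TDCIPP+DOX against DMSO on the TMM scale (log2 fold change -0.81 ± 0.22, SE, edgeR adjusted p = 0.0373), with 18.1, 21.7 and 25.5 CPM in TDCIPP+DOX, 27.3, 24.8 and 18.2 CPM in DOX, 26.7, 28.7 and 27.1 CPM in TDCIPP, and 32.5, 47.7 and 34.1 CPM in DMSO. DOX replicates 2 and 3 lay within the range of TDCIPP+DOX, and all TDCIPP and DMSO libraries above it. Its log2 fold change was 0.21 with library totals, and the call held in 2 of the 12 fits that left out a library. Its gene model overlaps another.

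In TDCIPP+DOX against DOX, all 7 complex I assembly factors were below 0 with a median of -0.93, against -0.08 over all genes, and 0 of them passed edgeR's adjusted threshold, while 4 passed by unadjusted p and 4 by DESeq2. Over all 96 members 0 rose and 0 fell by edgeR (0.71% and 1.39% of all genes), an unadjusted edgeR p passed in 1 upwards and 15 downwards (10.4% and 14.0% of all genes), and DESeq2 called 0 higher and 7 lower (5.19% and 6.54%). Groups did not overlap for 0 members that were higher and 17 that were lower, against 13.5% and 13.6% of all genes. Ndufaf4 had 1.53, 1.76 and 1.77 CPM in TDCIPP+DOX, 3.07, 3.54 and 6.99 CPM in DOX, 2.57, 2.64 and 2.32 CPM in TDCIPP, and 2.18, 3.35 and 2.2 CPM in DMSO. The DOX value was highest in replicate 3, the library with oocyte markers. All 3 DOX libraries lay above every TDCIPP+DOX library. The part of oocyte RNA in this was not tested. Its log2 fold change was -1.43 (edgeR adjusted p = 0.0607), and those of ndufaf6, ndufaf7 and ndufaf1 were -1.10, -1.03 and -0.93. The gene model of ndufaf1 overlaps others. Without DOX replicate 3, ndufaf1 (-1.13 ± 0.22, SE, edgeR adjusted p = 0.0376), cox7a1 (-1.2) and cox7a3 (-1.01) passed the test, and without DMSO replicate 2 ndufaf6 did (-1.09, edgeR adjusted p = 0.0424). The median of all members in this contrast was -0.27, and 0.07 with library totals, under which 0 members passed (0.673% of all genes rose and 0.0678% fell) and the median of the 7 assembly factors was -0.56, against 0.23 over all genes. On the TMM scale the members lay -0.19 from the median of all genes. This distance was -0.06 without DOX replicate 2, -0.12 without TDCIPP+DOX replicate 2 and -0.50 without DOX replicate 3.

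Complex II and III genes gave 0 calls in TDCIPP+DOX against DMSO by edgeR's adjusted p, with 0 and 3 lower at an unadjusted p and 0 and 2 by DESeq2. Sdhb, the iron-sulfur subunit of complex II, had 28.6, 23.2 and 34.3 CPM in TDCIPP+DOX, 32.1, 41.8 and 31.5 CPM in DOX, 31.1, 21.3 and 24.8 CPM in TDCIPP, and 21.9, 28.5 and 22.2 CPM in DMSO. TDCIPP+DOX overlapped with every other group, while DOX lay above TDCIPP and DMSO without overlap. The log2 fold change of sdhb was 0.24 in TDCIPP+DOX against DMSO and 0.54 in DOX against DMSO (edgeR adjusted p = 0.156), and sdha was at -0.24 in TDCIPP+DOX against DMSO. In complex III the core protein gene uqcrc1 was at 0.32 and uqcrfs1, the Rieske iron-sulfur protein, at -0.10, whereas uqcrc2a was at -0.77 (edgeR adjusted p = 0.0809) and uqcrh, the hinge protein, at -0.62 (edgeR adjusted p = 0.0622). Uqcrc1 and uqcrc2a had values of opposite sign on the TMM scale, neither past the threshold. With library totals all 4 tested complex II genes and 5 of 7 complex III genes rose, against 36.4% of all genes.

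Complex IV held the largest log2 fold changes in both directions among members that passed the test. Cox4i2 (ENSDARG00000022509, chromosome 23) encodes the alternative form of subunit 4, which in mammals is induced at low oxygen. It had 38.9, 33.7 and 43.3 CPM in TDCIPP+DOX, 54.7, 42.0 and 22.9 CPM in DOX, 2.18, 7.56 and 9.02 CPM in TDCIPP, and 8.94, 5.0 and 8.65 CPM in DMSO. All 6 libraries with DOX lay above all 6 without it, the lowest being DOX replicate 3. It rose in TDCIPP+DOX against DMSO (log2 fold change 2.36 ± 0.49, SE, edgeR adjusted p = 0.0107), in TDCIPP+DOX against TDCIPP (log2 fold change 2.63 ± 0.49, SE, edgeR adjusted p = 0.0169) and in DOX against DMSO (log2 fold change 2.40 ± 0.49, SE, edgeR adjusted p = 0.0218). With library totals these log2 fold changes were 3.37, 3.26 and 3.02. The 3 calls lapsed without DMSO replicate 2 in the first comparison, without TDCIPP replicate 2 or TDCIPP+DOX replicate 1 or 3 in the second, and without any 1 of the DMSO libraries in the third, with adjusted p up to 0.0735 in edgeR.

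Cox4i1 (chromosome 18), the common form of subunit 4, had 143, 148 and 164 CPM in TDCIPP+DOX, 182, 227 and 138 CPM in DOX, 191, 181 and 207 CPM in TDCIPP, and 243, 297 and 225 CPM in DMSO. DMSO lay above TDCIPP+DOX and TDCIPP without overlap, and DOX overlapped with all groups. It fell in TDCIPP+DOX against DMSO on the TMM scale (log2 fold change -0.75 ± 0.21, SE, edgeR adjusted p = 0.0379) but had a log2 fold change of 0.27 with library totals, and the call held in 3 of 12 fits with a library left out. The third copy, cox4i1l, had 11.6, 8.03 and 52.9 CPM in TDCIPP+DOX, 2.37, 8.14 and 7.91 CPM in DOX, 2.39, 2.91 and 5.0 CPM in TDCIPP, and 3.77, 1.75 and 6.54 CPM in DMSO. The highest value lay in TDCIPP+DOX replicate 3, the library with intestine markers. Its log2 fold change was 2.59 with an edgeR adjusted p of 0.0512 and a DESeq2 adjusted p of 0.00445.

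Cox6b1 (chromosome 24) encodes subunit 6b on the outer face of the enzyme. Its levels were 136, 133 and 204 CPM in TDCIPP+DOX, 108, 161 and 74.1 CPM in DOX, 66.6, 64.5 and 73.9 CPM in TDCIPP, and 73.6, 71.2 and 55.8 CPM in DMSO. Every library with DOX lay above every library without it, DOX replicate 3 by the least. It rose in TDCIPP+DOX against DMSO (log2 fold change 1.24 ± 0.28, SE, edgeR adjusted p = 0.0174) and against TDCIPP (log2 fold change 1.2 ± 0.28, SE, edgeR adjusted p = 0.0364), with 2.24 and 1.85 under library totals. The first call lapsed without DMSO replicate 2 or 3 or TDCIPP+DOX replicate 3, and the second held in 2 of 12 fits with a library left out, those without DOX replicate 2 or 3. Cox6b2 (chromosome 16), the other copy, had 77.6, 90.4 and 74.9 CPM in TDCIPP+DOX, 138, 133 and 97.6 CPM in DOX, 141, 182 and 148 CPM in TDCIPP, and 161, 225 and 191 CPM in DMSO. TDCIPP+DOX lay below all other libraries. It fell in TDCIPP+DOX against DMSO (log2 fold change -1.25 ± 0.21, SE, edgeR adjusted p = 0.004) and against TDCIPP (log2 fold change -0.96 ± 0.20, SE, edgeR adjusted p = 0.0277) on the TMM scale, and was not called with library totals, at -0.22 and -0.30.

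Cox6a1 (chromosome 8) encodes subunit 6a. It stood at 25.6, 27.1 and 28.4 CPM in TDCIPP+DOX, 28.1, 37.4 and 32.4 CPM in DOX, 23.1, 17.3 and 21.2 CPM in TDCIPP, and 14.5, 18 and 15.3 CPM in DMSO. Both groups with DOX lay above DMSO without overlap, and TDCIPP lay between, with only its replicate 2 inside the DMSO range. It rose in DOX against DMSO (log2 fold change 1.03 ± 0.18, SE, edgeR adjusted p = 0.0143) and in TDCIPP+DOX against DMSO (log2 fold change 0.76 ± 0.18, SE, edgeR adjusted p = 0.0219), with 1.75 and 1.78 under library totals. The first call lapsed without DMSO replicate 1 or 3, and the second without DMSO replicate 1 or 3 or any 1 of the TDCIPP+DOX libraries. Both also lapsed without the 4 libraries with oocyte or intestine markers, a fit with 1 library fewer in every group. Its gene model overlaps another.

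Cox7a1 (ENSDARG00000069464, chromosome 15) is in mammals the heart and skeletal muscle form of subunit 7a. Its levels were 37.6, 54.0 and 50.5 CPM in TDCIPP+DOX, 103, 116 and 62.9 CPM in DOX, 99.5, 137 and 93.7 CPM in TDCIPP, and 165, 267 and 169 CPM in DMSO. TDCIPP+DOX lay lowest and DMSO highest, and the 3 treated groups all stayed below the DMSO libraries. It fell in TDCIPP+DOX against DMSO (log2 fold change -2.08 ± 0.30, SE, edgeR adjusted p = 0.00258), which with library totals was -1.06 with an edgeR adjusted p of 0.00539. It also fell in TDCIPP+DOX against TDCIPP (log2 fold change -1.22 ± 0.29, SE, edgeR adjusted p = 0.0391) and in DOX against DMSO (log2 fold change -1.09 ± 0.29, SE, edgeR adjusted p = 0.046), but these 2 calls were lost with library totals, at -0.55 and -0.45. They held in 3 and 0 of the 12 fits that left out a library. The 23 muscle and heart markers in the table, of which 7 to 17 had reads in a library, summed to 3.96 to 44.9 CPM in TDCIPP+DOX, 2.26 to 15.9 CPM in DOX, 1.21 to 2.05 CPM in TDCIPP and 1.32 to 3.67 CPM in DMSO. The sum was highest in TDCIPP+DOX replicate 3, at 44.9 CPM, and next in DOX replicate 1, at 15.9 CPM. Values by gene were drawn up only for ckma and actc1b of this list, which reached at most 0.538 CPM in any library. Which other markers made up these sums is not given here. The part of muscle RNA in the values of cox7a1 was not tested.

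Cox7a3 (chromosome 12) carries the reference symbol COX7A2L and was counted in complex IV and with the cox7a copies by its name. It had 30.5, 35.2 and 33.0 CPM in TDCIPP+DOX, 65.1, 68.4 and 40.3 CPM in DOX, 62.2, 80.1 and 96.7 CPM in TDCIPP, and 86.5, 98.1 and 83.4 CPM in DMSO. TDCIPP+DOX lay below every library of the other groups, DOX replicate 3 being the nearest. It fell in TDCIPP+DOX against DMSO (log2 fold change -1.44 ± 0.23, SE, edgeR adjusted p = 0.00377) and against TDCIPP (log2 fold change -1.28 ± 0.23, SE, edgeR adjusted p = 0.0166), with -0.42 and -0.64 and no call under library totals. Its gene model overlaps another. Ndufa4l (chromosome 3) had 152, 198 and 198 CPM in TDCIPP+DOX, 226, 297 and 169 CPM in DOX, 286, 304 and 265 CPM in TDCIPP, and 379, 488 and 357 CPM in DMSO. DMSO lay above all other libraries, and DOX overlapped with TDCIPP+DOX. Its fall in TDCIPP+DOX against DMSO (log2 fold change -1.16 ± 0.23, SE, edgeR adjusted p = 0.0095) was -0.15 with library totals and lapsed without TDCIPP+DOX replicate 1. Ndufa4, the related copy, had 5.65, 2.15 and 54.1 CPM in TDCIPP+DOX, 6.64, 0.365 and 0.307 CPM in DOX, 1.93, 1.04 and 5.27 CPM in TDCIPP, and 0.0454, 0.0485 and 1.3 CPM in DMSO, with the highest value in TDCIPP+DOX replicate 3, the library with intestine markers. Its log2 fold change was 5.45 (edgeR adjusted p = 0.067).

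Cox5aa (chromosome 25), 1 of the 2 copies of subunit 5a, had 92.4, 83.1 and 101 CPM in TDCIPP+DOX, 113, 116 and 78.7 CPM in DOX, 139, 131 and 143 CPM in TDCIPP, and 166, 189.7 and 167 CPM in DMSO. Every library with DOX lay below every library without it. It fell in TDCIPP+DOX against DMSO (log2 fold change -0.92 ± 0.19, SE, edgeR adjusted p = 0.0098) and in DOX against DMSO (log2 fold change -0.76 ± 0.19, SE, edgeR adjusted p = 0.035) on the TMM scale, with 0.10 and -0.10 under library totals. The second call held in 1 of 12 fits with a library left out. Cox5ab, the other copy, was at -0.33 in TDCIPP+DOX against DMSO and not called.

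**Figure D3:**
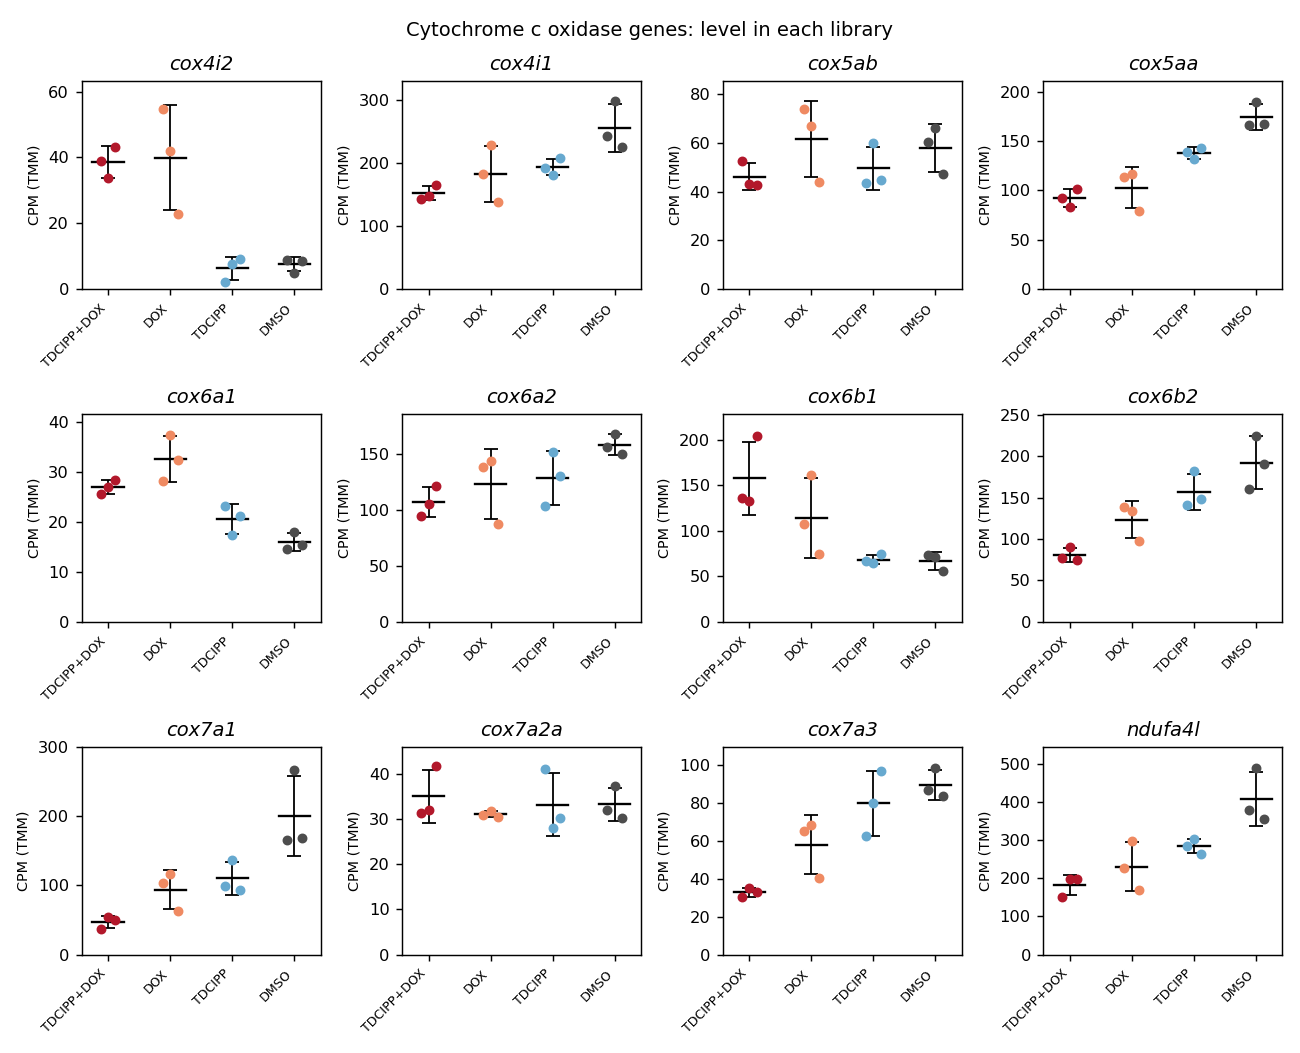
CPM (TMM-scaled) of 12 complex IV genes in each library, with points for libraries, a bar for the mean and whiskers for the SD of the 3 libraries of a group. Cox4i2 lay at 22.9 to 54.7 CPM in the 6 libraries with DOX and at 2.18 to 9.02 CPM in the 6 without, while cox7a1 was lowest in TDCIPP+DOX and highest in DMSO on this scale. With library totals its fall was still called in TDCIPP+DOX against DMSO, but not in TDCIPP+DOX against TDCIPP or in DOX against DMSO.

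Among ATP synthase genes, atp5mc3b (ENSDARG00000009447, chromosome 6) had 352, 352 and 369 CPM in TDCIPP+DOX, 663, 664 and 388 CPM in DOX, 618, 868 and 653 CPM in TDCIPP, and 899, 1385 and 1002 CPM in DMSO. TDCIPP+DOX lay below all other libraries, DOX replicate 3 being the nearest, and DMSO lay above all. It fell in TDCIPP+DOX against DMSO (log2 fold change -1.62 ± 0.26, SE, edgeR adjusted p = 0.00374), and with library totals it was still called, at -0.59 with an edgeR adjusted p of 0.023. Atp5mc1 (chromosome 3), another copy of the c subunit gene, had 116, 104 and 137 CPM in TDCIPP+DOX, 120.0, 171 and 134 CPM in DOX, 96.4, 79.2 and 85.2 CPM in TDCIPP, and 75.2, 111 and 63.8 CPM in DMSO. Both groups with DOX lay higher than DMSO except for DMSO replicate 2, which was above 1 TDCIPP+DOX library. It had a log2 fold change of 0.51 in TDCIPP+DOX against DMSO (edgeR adjusted p = 0.185) and 0.76 in DOX against DMSO (edgeR adjusted p = 0.0758), past the threshold in neither.

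Another 4 subunits of ATP synthase fell in TDCIPP+DOX against DMSO on the TMM scale, and all of them had a log2 fold change of 0.01 or more with library totals. Atp5po, the stalk protein OSCP that holds the catalytic head, had 129, 125 and 143 CPM in TDCIPP+DOX, 223, 224 and 131 CPM in DOX, 178, 260.0 and 197 CPM in TDCIPP, and 238, 326 and 238 CPM in DMSO (log2 fold change -1.01 ± 0.25, SE, edgeR adjusted p = 0.0234, and 0.01 with library totals). DOX replicate 3 lay among the TDCIPP+DOX libraries. Atp5mea, subunit e of the membrane part, had 41.3, 40.9 and 44.1 CPM in TDCIPP+DOX, 53.7, 57.1 and 45.9 CPM in DOX, 64.2, 78.1 and 76.3 CPM in TDCIPP, and 67.8, 86.7 and 74.9 CPM in DMSO (log2 fold change -0.86 ± 0.17, SE, edgeR adjusted p = 0.00871, and 0.16 with library totals). Both DOX groups lay below both groups without DOX. Atp5mea also fell in TDCIPP+DOX against TDCIPP (log2 fold change -0.79 ± 0.17, SE, edgeR adjusted p = 0.0272), a call that lapsed without TDCIPP replicate 2 or 3 or any 1 of the TDCIPP+DOX libraries. Atp5f1e, the epsilon subunit of the head, and atp5l, subunit g, were at -0.83 (edgeR adjusted p = 0.00997) and -0.74 (edgeR adjusted p = 0.0288), against 0.20 and 0.28 with library totals. The gene model of atp5f1e overlaps another.

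Atp5po lost its call without DMSO replicate 2 or any 1 of the TDCIPP+DOX libraries, atp5l without 6 of the 12 libraries in turn and atp5f1e without TDCIPP+DOX replicate 1. The catalytic subunits atp5fa1 and atp5f1b did not pass, at -0.30 and -0.27. Atp5if1a, a protein that blocks the reverse reaction of the enzyme, was at -0.90 (edgeR adjusted p = 0.0918) in this comparison and at -1.06 in TDCIPP+DOX against DOX (edgeR adjusted p = 0.0954).

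**Figure D4:**
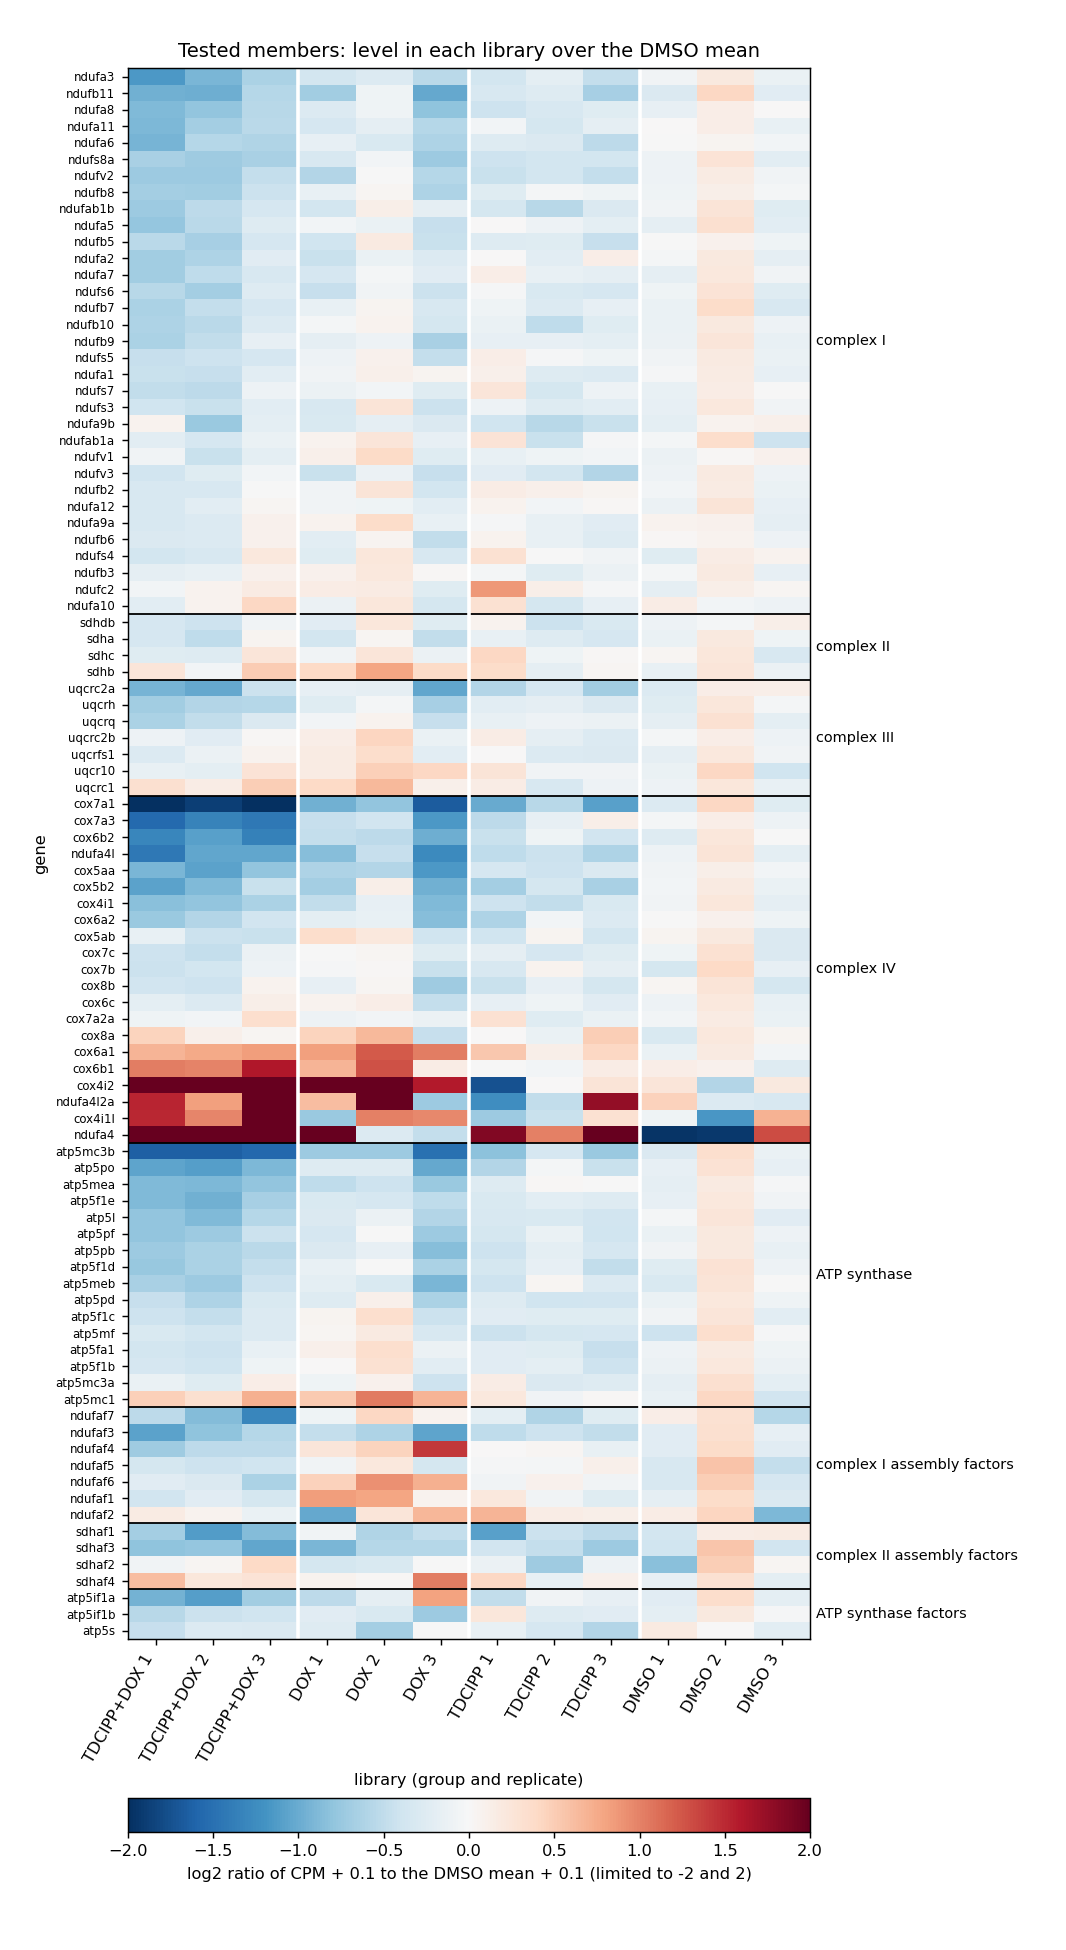
Log2 ratio of CPM (TMM-scaled, plus 0.1) to the DMSO mean (plus 0.1) in each library, for each tested member but 1, limited to -2 and 2, with blue for lower and red for higher, genes by complex and libraries by group. Most members of TDCIPP+DOX are blue while cox4i2, cox6b1 and cox6a1 are red, and with library totals in place of TMM the median member is 0.64 higher (log2) in TDCIPP+DOX than in DMSO.

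In DOX against DMSO, 2 members rose and 2 fell by edgeR (3.93% and 2.93% of all genes). The rises were cox4i2 and cox6a1 and the falls cox7a1 and cox5aa, all in complex IV. By unadjusted p, 8 were above and 10 below at 0.05 (16.3% and 10.4% of all genes), and DESeq2 called 2 higher and 7 lower (8.17% and 6.64%). Groups did not overlap for 5 members that were higher and 18 that were lower, against 13.7% and 12.3% of all genes. The median was -0.13 against 0.12 over all genes, a distance of -0.25. This distance rested on DOX replicate 3, the library with oocyte markers: without it the medians were -0.06 and -0.05, a distance of -0.01. Without DMSO replicate 3 it was -0.38, and without the 4 libraries with oocyte or intestine markers -0.09. With library totals 25 members rose and 0 fell, against 25.1% and 1.21% of all genes, so that the share of members that rose was close to that of all genes. The medians were then 0.55 for members and 0.83 for all genes. The count of falls was 0 or 1 with any 1 of the 12 libraries left out. It was 1 without TDCIPP replicate 1, where cox5aa kept its call, and 1 without DOX replicate 2. Cox7a1 and cox5aa both lost their calls without DOX replicate 2, so the fall counted there was another member. The 2 rises became 0 without DMSO replicate 1 or 3 and 1 without DMSO replicate 2, and 3 members rose without DOX replicate 3.

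In TDCIPP against DMSO, 0 members passed edgeR's adjusted threshold in either direction (0.0104% and 0.0313% of all genes rose and fell), and DESeq2 called 0 higher and 0 lower (1.34% and 0.93%). By unadjusted p, 0 were higher and 4 lower at 0.05, against 6.0% and 4.02% of all genes. The 4 were cox7a1 (-0.86, edgeR adjusted p = 0.327), atp5mc3b (-0.62), ndufa4l (-0.52) and ndufv2 (-0.44). TMM-scaled values did not overlap for 0 members that were higher and 28 that were lower, against 10.4% and 8.95% of all genes. The median was -0.20 against 0.02 over all genes, and with library totals 0.18 against 0.39. The distance of -0.22 on the TMM scale was -0.12 without DMSO replicate 2. TDCIPP against DMSO, DOX against DMSO and TDCIPP+DOX against DMSO share the same 3 DMSO libraries.

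In TDCIPP+DOX against TDCIPP, 2 members rose and 4 fell by edgeR (2.03% and 2.16% of all genes), cox4i2 and cox6b1 against cox7a3, cox7a1, cox6b2 and atp5mea. DESeq2 called 3 higher and 6 lower (4.57% and 4.49%), and by unadjusted p 3 were higher and 15 lower (9.36% and 8.59%). Groups did not overlap for 6 members that were higher and 36 that were lower, against 14.7% and 15.4% of all genes. With library totals 14 rose and 0 fell, against 13.2% and 0.992% of all genes, again a share of rises close to that of all genes. The medians were then 0.43 for members and 0.64 for all genes, and -0.23 and -0.01 with TMM, where the distance of -0.22 was -0.14 without TDCIPP+DOX replicate 2. The falls became 0 without TDCIPP replicate 2 or 3 or without any 1 of the TDCIPP+DOX libraries, and 7 without DOX replicate 3. The rises became 0 without TDCIPP replicate 2 or TDCIPP+DOX replicate 1 or 3, and 1 without any 1 of the DMSO libraries, DOX replicate 1, TDCIPP replicate 1 or 3, or TDCIPP+DOX replicate 2.

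The interaction asks whether TDCIPP acted differently with DOX than without it. By edgeR's adjusted p 0 members were higher and 0 lower (0.0157% and 0.0104% of all genes), with 0 and 4 at an unadjusted p (5.51% and 7.32%) and 0 and 0 by DESeq2 (1.04% and 0.492%). The 4 were ndufaf4 (-1.39), ndufaf6 (-1.08), ndufaf1 (-0.91) and cox6a1 (-0.64), with edgeR adjusted p of 0.368 to 0.378. The median of the members was -0.06, against -0.13 over all genes, and which of them was higher depended on single libraries. Without DOX replicate 3 the medians were -0.18 for members and 0.01 for all genes, without DMSO replicate 2 they were -0.19 and -0.16, and without the 4 libraries with oocyte or intestine markers -0.20 and -0.02. Leaving out any other single library gave a distance of 0.02 to 0.18 with the members above.

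Ratios between copies of the same subunit do not depend on the scaling of a library. They are given as a description, with no test, since the pairs were chosen with their values known. Cox4i2 made up 13.9, 12.1 and 11.6% in TDCIPP+DOX, 15.8, 10.2 and 9.11% in DOX, 0.708, 2.54 and 2.63% in TDCIPP, and 2.25, 1.05 and 2.32% in DMSO of the FPKM of the 3 cox4i genes. All 6 libraries with DOX lay above all 6 without. Cox6b1 held 66.4, 62.3 and 75.4% in TDCIPP+DOX, 46.6, 57.6 and 46.1% in DOX, 34.7, 28.5 and 35.9% in TDCIPP, and 34.0, 26.3 and 24.8% in DMSO of the cox6b sum. It was the larger copy in every TDCIPP+DOX library and the smaller one in every TDCIPP and DMSO library.

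Atp5mc1 made up 18.4% ± 1.62 in TDCIPP+DOX, 15.3% ± 3.98 in DOX, 8.15% ± 1.86 in TDCIPP and 5.16% ± 0.690 in DMSO of the atp5mc sum (SD, n = 3), and atp5mc3b the greatest share in every group. Cox6a1 held 18.7% ± 1.11 in TDCIPP+DOX, 19.9% ± 4.86 in DOX, 13.0% ± 3.72 in TDCIPP and 8.33% ± 0.556 in DMSO of the cox6a sum. Within cox7a, cox7a1 held 41.1% ± 3.58 in TDCIPP+DOX, 52.4% ± 3.97 in DOX, 51.3% ± 6.61 in TDCIPP and 63.7% ± 4.16 in DMSO, and cox7a2a 35.3% ± 3.90 in TDCIPP+DOX, 21.0% ± 5.10 in DOX, 18.2% ± 5.22 in TDCIPP and 12.5% ± 1.3 in DMSO. Cox7a2a itself stayed at 31.4, 32.1 and 41.9 CPM in TDCIPP+DOX, 31.0, 31.9 and 30.6 CPM in DOX, 41.2, 28.1 and 30.3 CPM in TDCIPP, and 32.1, 37.3 and 30.3 CPM in DMSO, with overlap between all groups, while cox7a1 and cox7a3 were lower in TDCIPP+DOX on the TMM scale. These shares leave out COX7A2 (1 of many), a further cox7a copy that the name rule does not take because it is spelt in capitals. It had 80.1, 64.6 and 91.9 CPM in TDCIPP+DOX, 69.8, 53.1 and 49.9 CPM in DOX, 58.4, 63.5 and 57.5 CPM in TDCIPP, and 58.9, 78.5 and 62.4 CPM in DMSO. TDCIPP+DOX lay above TDCIPP without overlap and overlapped with DOX and DMSO. Per length it averaged 444 ± 79.4 FPKM in TDCIPP+DOX, 257 ± 52.4 FPKM in DOX, 213 ± 13.5 FPKM in TDCIPP and 184 ± 28.4 FPKM in DMSO (SD, n = 3), above cox7a1 in the mean of every group but DMSO. In a sum chosen after the data were seen that includes it, it held 59.4% ± 5.16 in TDCIPP+DOX, 41.4% ± 5.29 in DOX, 37.6% ± 1.06 in TDCIPP and 31.6% ± 1.42 in DMSO, and cox7a1 held 16.8% ± 3.65 in TDCIPP+DOX, 30.9% ± 4.84 in DOX, 32.0% ± 4.38 in TDCIPP and 43.6% ± 3.62 in DMSO. Cox8a held 7.53% ± 2.0 in TDCIPP+DOX, 7.65% ± 1.02 in DOX, 7.51% ± 1.93 in TDCIPP and 5.67% ± 1.41 in DMSO of the cox8 sum, and its groups overlapped. Over 12 such pairs, the ratios of TDCIPP+DOX and DMSO overlapped in 1, those of DOX and DMSO in 4, and those of TDCIPP and DMSO in 8. Without overlap, ratios were higher in 9 pairs and lower in 2 in TDCIPP+DOX against DMSO. They were higher in 8 and lower in 0 in DOX against DMSO, and higher in 4 and lower in 0 in TDCIPP against DMSO. The copy on top of each ratio was picked by hand, mostly the one with the lower FPKM in DMSO. Swapping the copies turns higher into lower, so these counts of higher and lower show no shared direction. Atp5mc1 and atp5mc3a were both set against atp5mc3b, so the pairs are not all independent. No share over other pairs of genes was computed, so these counts have no background.

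**Figure D5:**
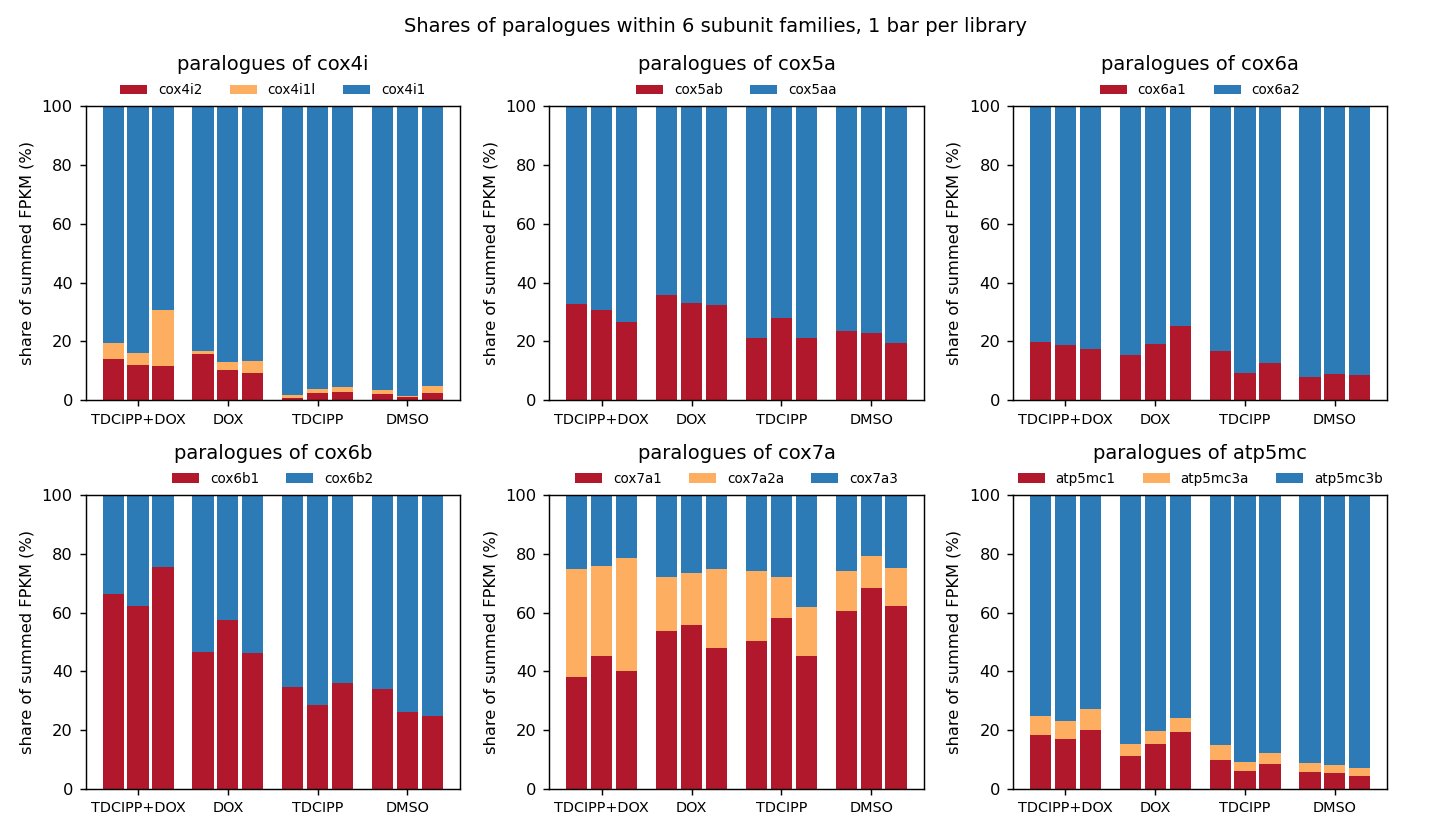
Share of each copy in the summed FPKM of its subunit family, in percent, with 1 stacked bar per library, 3 bars per group and 1 panel for each of 6 families, the cox7a panel without the copy spelt in capitals. In group means cox4i2 made up 12.5% in TDCIPP+DOX, 11.7% in DOX, 1.96% in TDCIPP and 1.87% in DMSO, and cox6b1 68.0% in TDCIPP+DOX, 50.1% in DOX, 33.0% in TDCIPP and 28.3% in DMSO.

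The 13 protein genes of mitochondrial DNA, which encode the remaining core subunits, took 2.57% of reads in TDCIPP+DOX, 2.41% in DOX, 2.52% in TDCIPP and 2.62% in DMSO. On the TMM scale 8 of 13 fell in TDCIPP+DOX against DMSO (6.37% of all genes), with a median of -0.98 and mt-nd3 at -1.37 ± 0.19 (SE, edgeR adjusted p = 0.0022). In DOX against DMSO 2 of 13 fell (2.93% of all genes), with a median of -0.74. With library totals 0 of 13 passed in either comparison, and the medians were 0.04 and -0.11. Of all genes 36.4% rose and 1.59% fell in the first comparison, and 25.1% and 1.21% in the second. Reads of the 102 nuclear members came to 30.7%, 33.0% and 40.9% of the reads of these 13 genes in TDCIPP+DOX, 34.2%, 32.6% and 39.5% in DOX, 27.1%, 25.6% and 27.2% in TDCIPP, and 24.0%, 25.6% and 23.7% in DMSO. This ratio needs no scaling between libraries, and every library with DOX lay above every library without it. It was chosen after its values were seen and has no test.

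Genes that the rule leaves out but that serve the same chain were counted as a list of electron carriers and assembly factors. Of its 52 tested genes, 0 rose and 8 fell in TDCIPP+DOX against DMSO on the TMM scale (5.33% and 6.37% of all genes), with a median of -0.35. Lyrm7, which matures the iron-sulfur protein of complex III, had 3.35, 3.86 and 4.70 CPM in TDCIPP+DOX, 7.72, 10.5 and 6.99 CPM in DOX, 6.31, 8.46 and 7.56 CPM in TDCIPP, and 10.5, 17.8 and 8.56 CPM in DMSO (log2 fold change -1.63 ± 0.30, SE, edgeR adjusted p = 0.00652). TDCIPP+DOX was lowest. Cmc1 and cmc2, factors of complex IV assembly, and tmem126a were at -1.19, -1.24 and -1.37. In TDCIPP+DOX against DOX 5 of 52 fell (1.39% of all genes), with a median of -0.58 against -0.08 over all genes. Among them were ttc19, a complex III factor, at -1.66, and foxred1, a complex I assembly factor, at -1.26. In DOX against DMSO 2 rose (3.93% of all genes), cycsb, a cytochrome c gene, at 1.11, and foxred1 at 1.07. With library totals 14 of the 52 rose and 0 fell in TDCIPP+DOX against DMSO (36.4% and 1.59% of all genes). In DOX against DMSO 22 rose and 0 fell (25.1% and 1.21%). In TDCIPP+DOX against DOX 0 passed (0.673% rose and 0.0678% fell over all genes), and the median was -0.28.

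In the authors' deposited table of their own comparisons, 7 members were called in TDCIPP+DOX against DMSO, 1 in DOX against DMSO, 0 in TDCIPP+DOX against DOX and 0 in TDCIPP against DMSO. Members with an adjusted p there numbered 101, 101, 101 and 100 in these comparisons. Over all genes with an adjusted p that table called 1356 of 27194, 194 of 27004, 34 of 27804 and 66 of 26690. The tool behind it is not named in the sources used here.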

How the data were processed

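Reads per gene were counted in 12 liver libraries, 3 per group. Per the submitters' processing notes, the authors aligned with HISAT. No version, counting tool, genome build, annotation or use of strand was given in the sources used here. Per the files, the deposited table holds raw counts per gene, the authors' FPKM per gene and library, and p-values (adjusted) from the authors' own comparisons. FPKM served for levels between genes and shares of copies, and the authors' p-values for 1 count of calls.

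The fit used edgeR 4.0.16 under R 4.3.3 (its quasi-likelihood test, TMM, default filter on low counts by group, 1 model of 4 group means over 12 libraries). It tested 19160 genes, with Benjamini-Hochberg adjustment over all of them and a threshold of 0.05. CPM are TMM-scaled, with 0.1 added in the heat map alone. DESeq2 1.42.0, other scalings and left-out libraries were alternatives. The script was tested on simulated data.

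Members, lists and pairs were chosen with earlier results of these data known. Named genes are up to 10 members per direction past the threshold, the highest gene per complex, core subunits and sets of copies, and of each list up to 4 members past the threshold. Not every gene the rule names is printed, and the values of 1 member, which stays in the fits and counts, are not reported here. Adding the genes spelt in capitals, and taking subunits alone, were alternatives added after seeing the data. Gene symbols were found for 101 members in the reference table.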

Additional observations from a re-analysis of the deposited data

How the results depend on the processing

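Other settings changed counts on the TMM scale as follows. DESeq2 gave 7 lower members in DOX against DMSO, 7 lower in TDCIPP+DOX against DOX, and 5 higher and 29 lower in TDCIPP+DOX against DMSO. Without the filter on low counts the lower members were 0 in DOX against DMSO and 9 in TDCIPP+DOX against DMSO, and TDCIPP+DOX against TDCIPP had 1 higher and 1 lower. In these comparisons 822, 1788 and 598 of all 28600 genes were then called in either direction. With only the groups compared in the fit, DOX against DMSO had 0 higher and 0 lower and TDCIPP+DOX against DMSO had 26 lower. Over all genes 97 of 16261 and 3084 of 17648 were then called in either direction. With a log2 fold change of at least 1, lower members numbered 1 in DOX against DMSO, 6 in TDCIPP+DOX against DMSO and 2 in TDCIPP+DOX against TDCIPP. No share over all genes was computed at this limit, so these 3 counts have no background. Without the 4 libraries with ovary or intestine transcripts, DOX against DMSO had 1 higher and 0 lower, and TDCIPP+DOX against TDCIPP 1 higher and 2 lower. Over all 19171 genes 684 and 844 were then called in either direction. Calls lost in this fit, which took 1 library from every group, were cox5aa, cox6a1 and cox7a1 in DOX against DMSO and ndufa6 and cox6a1 in TDCIPP+DOX against DMSO. In TDCIPP+DOX against TDCIPP they were cox6b1, cox6b2 and cox7a1.

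Library totals in place of TMM gave medians of 0.18 in TDCIPP against DMSO, 0.55 in DOX against DMSO, 0.07 in TDCIPP+DOX against DOX, 0.64 in TDCIPP+DOX against DMSO and 0.43 in TDCIPP+DOX against TDCIPP. The counts were 25 higher and 0 lower in DOX against DMSO, 48 and 2 in TDCIPP+DOX against DMSO, and 14 and 0 in TDCIPP+DOX against TDCIPP. Of the members called in TDCIPP+DOX against DMSO, 11 turned sign: atp5f1e 0.20, atp5l 0.28, atp5mea 0.16, atp5po 0.01, ndufa11 0.31, ndufa3 0.13, ndufa6 0.33, ndufa8 0.29, ndufaf3 0.21, cox4i1 0.27 and cox5aa 0.10. The cause of these changes was not tested.

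With 1 library left out in turn, members higher and lower numbered 0 to 3 and 0 to 1 in DOX against DMSO, 0 and 0 to 3 in TDCIPP+DOX against DOX, 1 to 5 and 6 to 27 in TDCIPP+DOX against DMSO, and 0 to 2 and 0 to 7 in TDCIPP+DOX against TDCIPP. Calls over all genes in either direction ranged, in the same order, from 209 to 1306, 0 to 476, 1017 to 3391 and 127 to 1339. Medians ranged from -0.25 to -0.07 in TDCIPP against DMSO, -0.25 to -0.03 in DOX against DMSO, -0.37 to -0.12 in TDCIPP+DOX against DOX, -0.47 to -0.28 in TDCIPP+DOX against DMSO, -0.29 to -0.16 in TDCIPP+DOX against TDCIPP and -0.19 to 0.05 in the interaction. TDCIPP against DMSO and the interaction kept 0 calls throughout.

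Same-numbered libraries did not all deviate together (r as low as -0.225), so the numbers were not taken to pair libraries. With the replicate number as a block, TDCIPP+DOX against DMSO had 5 higher and 12 lower members. Over all 19160 genes 2060 were then called in either direction, against 2241 without the block. Genes of low count, such as ndufb4 and sdhda, could not be judged at this depth.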

Other observations

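Of 20 tested regulators of mitochondrial biogenesis, 0 rose and 5 fell in TDCIPP+DOX against DMSO on the TMM scale (5.33% and 6.37% of all genes). The list median was -0.71, against 0.10 over all genes. Pprc1, a coactivator of nuclear genes for mitochondria, had 6.36, 7.66 and 5.78 CPM in TDCIPP+DOX, 30.5, 16.4 and 48.8 CPM in DOX, 16.7, 24.9 and 20 CPM in TDCIPP, and 34.9, 126 and 18.6 CPM in DMSO (log2 fold change -3.18 ± 0.64, SE, edgeR adjusted p = 0.00949). Ppargc1b, a related coactivator, had 16.2, 16.1 and 17.8 CPM in TDCIPP+DOX, 17.5, 13.3 and 9.37 CPM in DOX, 29.7, 30.1 and 36.0 CPM in TDCIPP, and 46.2, 30.7 and 49.1 CPM in DMSO, and fell in TDCIPP+DOX against DMSO (log2 fold change -1.33 ± 0.25, SE, edgeR adjusted p = 0.00733) and in DOX against DMSO (log2 fold change -1.65 ± 0.25, SE, edgeR adjusted p = 0.00922). Tfb1m and tfb2m, which act on mitochondrial ribosomal RNA and transcription, and twnk, the mitochondrial DNA helicase, were at -1.37, -1.55 and -1.41. With library totals 2 of the 20 rose and 1 fell in TDCIPP+DOX against DMSO (36.4% and 1.59% of all genes), the fall being pprc1 at -2.16.

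Of 36 tested genes of import and membrane structure, 0 rose and 4 fell in TDCIPP+DOX against DMSO on the TMM scale (5.33% and 6.37% of all genes). In TDCIPP+DOX against DOX 0 rose and 2 fell (0.71% and 1.39% of all genes). Timm23a, the channel of the inner membrane, had 11.9, 14.5 and 9.55 CPM in TDCIPP+DOX, 32.8, 32.2 and 24.8 CPM in DOX, 21.6, 26.3 and 27.0 CPM in TDCIPP, and 33.9, 44.7 and 31.6 CPM in DMSO. TDCIPP+DOX was lowest (against DMSO log2 fold change -1.61 ± 0.22, SE, edgeR adjusted p = 0.00238, and against DOX log2 fold change -1.32 ± 0.22, SE, edgeR adjusted p = 0.0322). A separate list held 10 tested genes of mitochondrial antioxidants and uncoupling. Of these, 1 rose and 2 fell in TDCIPP+DOX against DMSO on the TMM scale (5.33% and 6.37% of all genes), with a list median of 0.01. Ucp2, an uncoupling protein family member, rose in TDCIPP+DOX against DMSO, at 24.3, 36.5 and 17.9 CPM in TDCIPP+DOX, 18.1, 7.74 and 40.6 CPM in DOX, 6.80, 6.52 and 13.0 CPM in TDCIPP, and 4.63, 4.56 and 9.81 CPM in DMSO (log2 fold change 2.05 ± 0.57, SE, edgeR adjusted p = 0.0405), while ucp1 fell (log2 fold change -1.86 ± 0.29, SE, edgeR adjusted p = 0.0034) together with the ADP/ATP carrier slc25a5 (-1.54). Of 20 tricarboxylic acid cycle genes 1 fell in TDCIPP+DOX against DMSO, mdh2 (-0.87), against 6.37% of all genes. With library totals 9 import genes rose and 0 fell, and 11 of the cycle genes rose and 0 fell, against 36.4% and 1.59% of all genes. Ucp2 was then at 3.10, and ucp1 and slc25a5 were still called lower at -0.86 and -0.51.

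The 7 genes spelt in capitals have names that would meet the rule in lower case. COX5B averaged 59.4 ± 11.1 CPM in TDCIPP+DOX, 45.5 ± 7.79 CPM in DOX, 30.2 ± 6.61 CPM in TDCIPP and 20.8 ± 4.63 CPM in DMSO and NDUFB1 16.8 ± 1.65 CPM in TDCIPP+DOX, 22.1 ± 1.75 CPM in DOX, 24.1 ± 1.49 CPM in TDCIPP and 32.2 ± 8.49 CPM in DMSO (SD, n = 3). With these 7 added, TDCIPP+DOX against DMSO had 4 members higher and 17 lower (5.33% and 6.37% of all genes). DOX against DMSO then had 3 higher and 2 lower (3.93% and 2.93% of all genes). With structural subunits alone TDCIPP+DOX against DMSO had 3 higher and 15 lower, against the same 5.33% and 6.37% of all genes.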
